A study of Mus musculus with 6 samples.

Results

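The mRNA of 10 genes of the oxygen-sensing pathway was compared between smooth muscle cells with and without a deletion of *Pdk4*: the transcription factor subunits *Hif1a*, *Epas1* and *Arnt*, their regulators *Vhl*, *Egln1* and *Egln3*, and the targets *Car9*, *Ankrd37*, *Ndrg1* and *Adm*. They were taken by gene name from a table of 41721 genes, and all 10 were found there. The cells were mouse aortic smooth muscle cells (MASMCs), grown out of the abdominal aorta of mice aged 10 weeks and used at passages 4 to 8. The 3 Pdk4fl/fl cultures carried loxP sites around exons 4 to 6 of both *Pdk4* alleles and no Cre transgene. In the 3 Pdk4SMKO cultures the same floxed alleles were combined with *Myh11*-creERT2, a tamoxifen-dependent Cre recombinase driven by the smooth muscle myosin promoter from a transgene on the Y chromosome. Tamoxifen was given to mice of both genotypes in the study's methods, and every culture was exposed to angiotensin II (Ang II), at 1 μM for 48 h in those methods, so no culture without Ang II and none without floxed alleles enters the comparison. The labels give no oxygen level other than a humidified atmosphere with CO2 and do not say whether the libraries of a genotype came from separate mice. The study describes them as biological replicates without saying what was replicated, so the p-values measure the spread between these libraries, part of which may be technical.

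Hypoxia-inducible factors (HIFs) are dimers of an oxygen-sensitive alpha subunit, encoded by *Hif1a* or *Epas1*, and a stable beta subunit, encoded by *Arnt*. When oxygen is present, prolyl hydroxylases encoded by the *Egln* genes modify the alpha subunit, the von Hippel-Lindau protein encoded by *Vhl* binds the modified protein, and the proteasome removes it. When oxygen is scarce the alpha subunit persists, pairs with ARNT and binds DNA at the core letters ACGTG or GCGTG near its target genes. Much of this control acts on the protein, which these mRNA counts do not measure. PDK4, the kinase deleted here, inhibits the pyruvate dehydrogenase complex and so limits the entry of pyruvate into the mitochondrial citric acid cycle.

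The libraries held 16526044 to 22481670 counts each. *Pdk4* had 570, 639 and 421 counts in the Pdk4fl/fl libraries and 110, 182 and 141 in the Pdk4SMKO libraries, a level of 19.8% of Pdk4fl/fl over the whole gene, since the counts do not separate the floxed exons. Its log2 fold change was -2.34 (SE 0.22, adjusted p = 4.5e-06, edgeR's quasi-likelihood test with Benjamini-Hochberg adjustment over 14085 genes, as for every adjusted p given here). The genotypes differed across most of the transcriptome. An adjusted p under 0.05 with a fold change of at least 2 is called the threshold in the following. Of all genes tested, 59.3% passed it, with 32.8% of all tested higher and 26.5% lower in Pdk4SMKO. The adjusted p alone was passed by 79.1%. Correlations of log2 levels were at least 0.981 between libraries of a genotype and at most 0.748 between genotypes. *Xist*, a transcript of the inactive X chromosome, had 3 to 5 counts in the Pdk4fl/fl libraries and 321 to 610 in the Pdk4SMKO libraries, although the Cre transgene lies on the Y chromosome. What else set the cultures apart cannot be told apart from the genotype.

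A window of 250 bases before the gene start was found in the RefSeq promoter table (GRCm38.p6) for 8 of the 10 genes, and for *Epas1* and *Ndrg1* it was not found. Of these 8 windows, 7 held ACGTG or GCGTG on either strand, against 38.6% of the 32851 windows in the table, with *Vhl* as the one without a match. The comparison was not matched for base composition, and the 8 windows held 50.8% to 86.0% G or C. The windows of 5 genes are shown for their different responses: *Egln3* and *Adm* rose most, *Ankrd37* rose from very low counts, *Car9* did not pass the test and *Arnt* was lower. They are *Egln3* at chr12:54203875-54204124 on the minus strand, *Adm* at chr7:110627407-110627656 on the plus strand, *Ankrd37* at chr8:45999851-46000100 on the minus strand, *Car9* at chr4:43506776-43507025 on the plus strand, and *Arnt* at chr3:95434140-95434389 on the plus strand, each written along the gene's own strand with every ACGTG or GCGTG, or its reverse complement CACGT or CACGC, in capitals.
*Egln3*: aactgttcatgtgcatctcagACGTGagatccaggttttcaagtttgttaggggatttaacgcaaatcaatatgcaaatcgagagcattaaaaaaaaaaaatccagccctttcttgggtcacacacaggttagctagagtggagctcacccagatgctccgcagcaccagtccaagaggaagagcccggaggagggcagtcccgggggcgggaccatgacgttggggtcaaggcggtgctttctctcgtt
*Adm*: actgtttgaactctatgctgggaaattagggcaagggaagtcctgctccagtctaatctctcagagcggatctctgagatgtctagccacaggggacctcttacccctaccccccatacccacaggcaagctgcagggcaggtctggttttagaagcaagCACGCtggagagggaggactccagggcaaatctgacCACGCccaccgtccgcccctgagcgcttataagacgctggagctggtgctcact
*Ankrd37*: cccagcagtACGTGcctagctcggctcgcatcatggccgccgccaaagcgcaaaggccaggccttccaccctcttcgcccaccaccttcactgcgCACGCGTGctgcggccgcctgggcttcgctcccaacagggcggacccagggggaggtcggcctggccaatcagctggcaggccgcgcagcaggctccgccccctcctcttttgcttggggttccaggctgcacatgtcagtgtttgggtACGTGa
*Car9*: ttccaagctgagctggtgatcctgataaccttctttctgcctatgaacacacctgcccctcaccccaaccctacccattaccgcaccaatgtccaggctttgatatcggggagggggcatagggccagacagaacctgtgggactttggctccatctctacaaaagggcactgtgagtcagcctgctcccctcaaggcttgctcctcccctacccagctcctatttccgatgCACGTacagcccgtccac
*Arnt*: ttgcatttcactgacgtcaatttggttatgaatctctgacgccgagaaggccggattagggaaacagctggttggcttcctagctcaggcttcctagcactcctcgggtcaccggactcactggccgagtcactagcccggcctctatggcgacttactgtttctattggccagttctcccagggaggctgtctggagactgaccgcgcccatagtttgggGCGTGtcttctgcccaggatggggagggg
The *Egln3* window held 1 ACGTG, 229 to 225 bases before the start. The *Adm* window held GCGTG at 2 places on the opposite strand, the nearer one 54 to 50 bases before the start. The *Ankrd37* window held 4 matches, 2 of ACGTG and 2 of GCGTG, of which the GCGTG matches on opposite strands share letters. The *Car9* window held 1 ACGTG on the opposite strand, 18 to 14 bases before the start, and the *Arnt* window 1 GCGTG, 29 to 25 bases before it. Across all windows, 16.6% held ACGTG and 28.2% held GCGTG. A match is a run of letters and was not tested for binding. Of the 2 genes that did not pass the threshold, *Car9* held a match and *Vhl* did not.

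Of the 10 genes, all of which passed the filter on low counts, 6 were higher in Pdk4SMKO, 2 were lower and 2 did not pass the threshold, and the same 8 passed the adjusted p alone. The 6 higher genes were *Hif1a*, *Epas1*, *Egln1*, *Egln3*, *Ankrd37* and *Adm*, and the 2 lower genes were *Arnt* and *Ndrg1*. *Vhl* and *Car9* did not pass. *Ankrd37* and *Adm* passed the filter on low counts through Pdk4SMKO alone, so they could hardly have been called lower. With at least 10 counts required in every library, 4 of the genes were higher and 2 lower. Of the 11301 genes tested under that filter, 3165 were higher and 2785 lower. The median log2 fold change of the 10 was 1.54, against 0.12 over all genes tested, and 9 of the 10 did not overlap between genotypes, against 81.8% of all genes tested. The share past the threshold is to be read against the background of 59.3%. The 10 genes were chosen with earlier results of these data known, so their distance from the background is descriptive only.

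**Figure D1:**
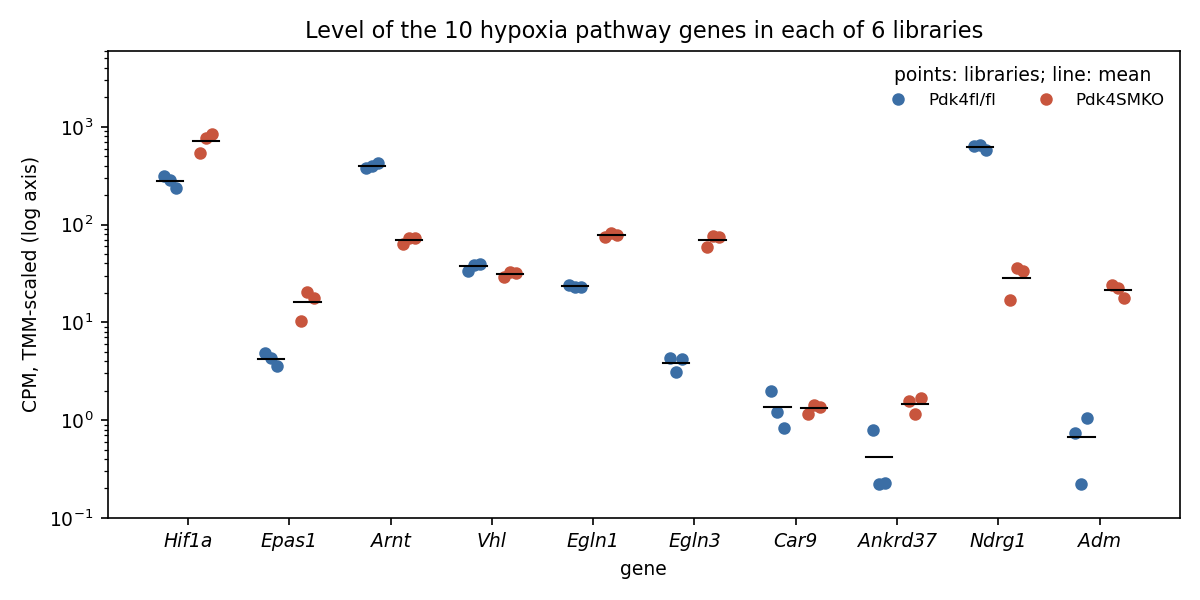
Level of each of the 10 genes in CPM (counts adjusted for the size and composition of each library with TMM) on a log axis, with 1 point per library and a line at the mean of the 3 libraries of a genotype. *Adm* and *Egln3* lay far apart between genotypes with Pdk4SMKO above, *Ndrg1* and *Arnt* with Pdk4fl/fl above, and the points of *Car9* overlapped.

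Among the transcription factor subunits, the alpha subunits were higher in Pdk4SMKO and their partner was lower. *Hif1a* encodes HIF-1 alpha, the alpha subunit present in most cell types. Its level was 315, 283 and 239 CPM in the 3 Pdk4fl/fl libraries and 538, 761 and 839 CPM in the 3 Pdk4SMKO libraries. All 3 Pdk4SMKO libraries lay above all 3 Pdk4fl/fl libraries, and Pdk4SMKO replicate 1 lay nearest to them, 1.71 times the highest Pdk4fl/fl library. The means were 278.9 ± 37.9 and 712.5 ± 156 CPM (SD, n = 3 each), a log2 fold change of 1.35 (SE 0.18, adjusted p = 5.8e-05, 95% interval 0.95 to 1.76). The gene lies on chromosome 12 at 76126794 to 76167943 on the plus strand (identifier MGP_C57BL6NJ_G0020230), and its antisense neighbour *Gm15283*, with 14 to 21 counts in Pdk4fl/fl and 156 to 218 in Pdk4SMKO, overlaps it. Whether the counting used strand is not stated in the sources used here. *Hif1a* itself had 3159 to 5156 counts in Pdk4fl/fl and 12246 to 17102 in Pdk4SMKO. By RT-qPCR the study reported lower *Hif1a* mRNA in Ang II-treated Pdk4SMKO MASMCs, the opposite direction. What separates the RT-qPCR result from these counts was not tested.

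*Epas1* encodes HIF-2 alpha, the alpha subunit best known from endothelial cells, kidney and lung. It lies on chromosome 17 at 93216299 to 93298998 (plus strand, MGP_C57BL6NJ_G0024498). Its level was 4.87, 4.28 and 3.56 CPM in Pdk4fl/fl and 10.3, 20.5 and 17.8 CPM in Pdk4SMKO. The genotypes did not overlap, and Pdk4SMKO replicate 1 was again the lowest of its genotype. The means were 4.24 ± 0.656 and 16.2 ± 5.30 CPM (SD, n = 3 each), a log2 fold change of 1.93 (SE 0.28, adjusted p = 9.6e-05, 95% interval 1.31 to 2.54). *Epas1* remained the minor alpha subunit in every library. Per kilobase of gene length, its level was 1.67%, 1.64% and 1.61% of that of *Hif1a* in the Pdk4fl/fl libraries and 2.06%, 2.90% and 2.28% in the Pdk4SMKO libraries. That ratio was 1.46-fold higher in Pdk4SMKO (difference of log2 means 0.54, exact two-sided permutation p = 0.1, the smallest that 3 libraries against 3 can give). Without Pdk4SMKO replicate 2 the difference was 0.40.

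*Arnt* encodes HIF-1 beta, which also pairs with the aryl hydrocarbon receptor, and it lies on chromosome 3 at 99729366 to 99794128 (plus strand, MGP_C57BL6NJ_G0028003). Its level was 379, 398 and 422 CPM in Pdk4fl/fl and 63.8, 72.6 and 72.1 CPM in Pdk4SMKO. The Pdk4fl/fl libraries were all at least 5.22 times the highest Pdk4SMKO library, with little spread inside either genotype. The means were 399.5 ± 21.7 and 69.5 ± 4.90 CPM (SD, n = 3 each), a 5.75-fold lower level in Pdk4SMKO (log2 fold change -2.52, SE 0.12, adjusted p = 5.2e-08, 95% interval -2.79 to -2.26). A processed pseudogene inside the locus had 0 to 13 counts in any library.

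The opposite changes of *Hif1a* and *Arnt* were set side by side in each library, a comparison chosen after their values were seen. Per kilobase, *Hif1a* was 1.15, 0.988 and 0.786 times *Arnt* in the Pdk4fl/fl libraries, so the 2 transcripts were near parity. In the Pdk4SMKO libraries *Hif1a* was 11.7, 14.5 and 16.1 times *Arnt*. The ratio was 14.5-fold higher in Pdk4SMKO on the mean of logs (difference of log2 means 3.86), and it needs no scaling between libraries. *Arnt2*, which encodes an alternative beta subunit, was at 21.6 ± 2.78 CPM in Pdk4fl/fl and 23.1 ± 1.95 CPM in Pdk4SMKO (SD, n = 3 each), with a log2 fold change of 0.10 (SE 0.15, adjusted p = 0.57).

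**Figure D2:**
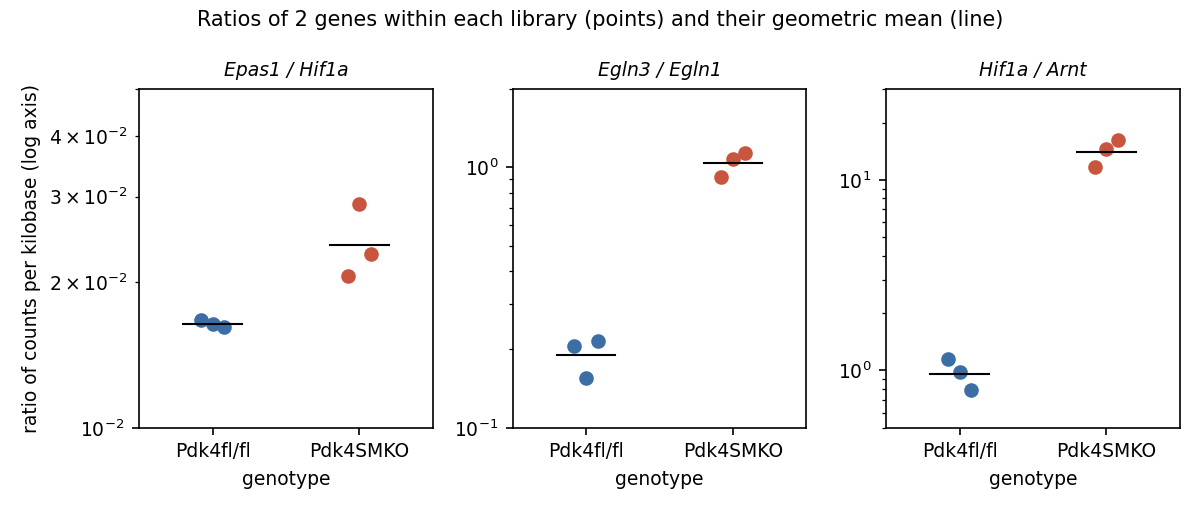
Ratio of 2 genes' counts per kilobase in each library (points) with the geometric mean of the genotype (line), on log axes that differ between panels. The *Epas1* to *Hif1a* ratio moved from between 1.61% and 1.67% to between 2.06% and 2.90%, the *Egln3* to *Egln1* ratio from at most 0.215 to at least 0.919, and the *Hif1a* to *Arnt* ratio from at most 1.15 to at least 11.7.

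Of the regulators, both prolyl hydroxylases were higher in Pdk4SMKO, while *Vhl* did not pass the threshold. *Egln1* encodes PHD2, held to be the main oxygen sensor for HIF-1 alpha, and lies on chromosome 8 at 132912451 to 132958653 (minus strand, MGP_C57BL6NJ_G0034776). Its level was 24.1, 23.2 and 23.1 CPM in Pdk4fl/fl and 74.7, 82.2 and 77.4 CPM in Pdk4SMKO. The 3 libraries of each genotype were close together, with coefficients of variation of 2.42% in Pdk4fl/fl and 4.89% in Pdk4SMKO, and the genotypes lay 3.09-fold apart at their nearest libraries. The log2 fold change was 1.73 (SE 0.12, adjusted p = 4.4e-07, 95% interval 1.47 to 1.99).

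*Egln3* encodes PHD3, itself a known transcriptional target of HIF, and lies on chromosome 12 at 54688657 to 54719969 (minus strand, MGP_C57BL6NJ_G0020123). It was counted 64, 56 and 56 times in the Pdk4fl/fl libraries and 1344, 1529 and 1539 times in the Pdk4SMKO libraries, or 4.27, 3.07 and 4.24 against 59.0, 76.1 and 75.5 CPM. The lowest Pdk4SMKO library was 13.8 times the highest Pdk4fl/fl library. The means were 3.86 ± 0.680 and 70.2 ± 9.70 CPM (SD, n = 3 each), an 18.2-fold higher level (log2 fold change 4.19, SE 0.19, adjusted p = 4.0e-08, 95% interval 3.77 to 4.61). It ranked 849th from the top by log2 fold change among the 14085 genes.

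Since *Egln3* rose more than *Egln1*, the balance of the 2 hydroxylase transcripts moved. Per kilobase, *Egln3* was 0.207, 0.155 and 0.215 times *Egln1* in the Pdk4fl/fl libraries and 0.919, 1.08 and 1.14 times in the Pdk4SMKO libraries. The ratio was 5.46-fold higher in Pdk4SMKO (difference of log2 means 2.45, exact two-sided permutation p = 0.1, the smallest possible). *Egln2*, which encodes PHD1, was at 21.4 ± 1.71 CPM in Pdk4fl/fl and 36.7 ± 4.20 CPM in Pdk4SMKO (SD, n = 3 each), with a log2 fold change of 0.78 (SE 0.14, adjusted p = 0.00055) that stayed under 2-fold. *Hif1an*, which encodes the asparaginyl hydroxylase FIH that blocks the recruitment of coactivators by the alpha subunit, had a log2 fold change of 0.16 (SE 0.12, adjusted p = 0.25).

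*Vhl* encodes the part of an E3 ubiquitin ligase that recognizes hydroxylated alpha subunits, and lies on chromosome 6 at 119154871 to 119162545 (plus strand, MGP_C57BL6NJ_G0031572). Its level was 33.6, 38.7 and 39.5 CPM in Pdk4fl/fl and 29.4, 32.9 and 32.1 CPM in Pdk4SMKO. The libraries of the genotypes did not overlap, but the gap was 1.02-fold at the nearest pair. The log2 fold change was -0.24 (SE 0.13, adjusted p = 0.11), and its 95% interval of -0.53 to 0.04 leaves out a 2-fold change in either direction under TMM scaling. With scaling by library size alone the sign turned, to 0.36 (adjusted p = 0.019).

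The scaling factors themselves differed between the genotypes. The TMM factors were 0.78 to 0.84 in the Pdk4fl/fl libraries and 1.21 to 1.26 in the Pdk4SMKO libraries. Scaling by library size alone moved the median log2 fold change of all genes up by 0.60, and upper-quartile scaling moved it up by 0.21. Under library size alone 6184 genes were higher and 2390 lower, so that 72.1% of the calls were higher, against 55.3% with TMM. The 6 higher and the 2 lower genes of the pathway passed the threshold in the same direction under TMM, RLE, upper-quartile and library-size scaling, and the sign of *Vhl* and of *Car9* did not hold.

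**Figure D3:**
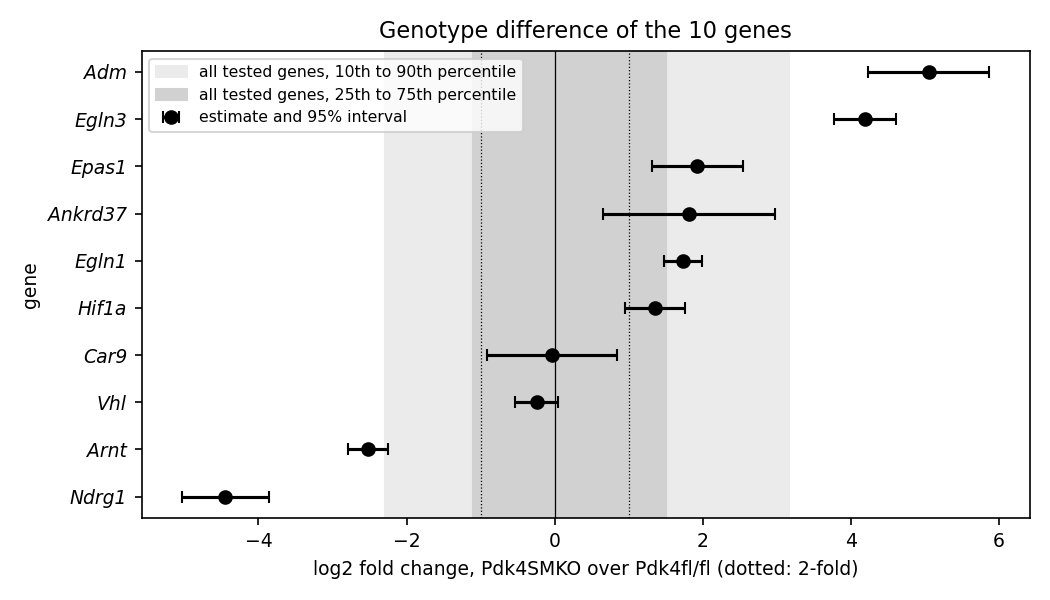
Log2 fold change of each of the 10 genes, Pdk4SMKO over Pdk4fl/fl, with its 95% interval from the edgeR fit, over bands that hold the 10th to 90th and the 25th to 75th percentile of all genes tested. *Adm*, *Egln3*, *Ndrg1* and *Arnt* lay outside the wider band of -2.29 to 3.17, and the intervals of *Vhl* and *Car9* crossed 0.

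The 4 targets gave 3 different outcomes. *Adm* encodes adrenomedullin, a vasodilator peptide secreted by vascular cells, and lies on chromosome 7 at 118849571 to 118851730 (plus strand, MGP_C57BL6NJ_G0033352). It was counted 11, 4 and 14 times in Pdk4fl/fl and 544, 451 and 364 times in Pdk4SMKO, or 0.73, 0.22 and 1.06 against 23.9, 22.4 and 17.9 CPM. The lowest Pdk4SMKO library was 16.9 times the highest Pdk4fl/fl library. The means were 0.671 ± 0.423 and 21.4 ± 3.15 CPM (SD, n = 3 each), and the log2 fold change of 5.06 (SE 0.37, adjusted p = 7.2e-07, 95% interval 4.24 to 5.87) was the highest of the 10 genes. The few Pdk4fl/fl counts limit that size, which ran from 4.59 to 5.52 when each library in turn was left out. An antisense gene over the whole locus, *Gm28863*, had at most 1 count.

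*Ndrg1* moved the other way and most of all downwards. It encodes a stress-responsive cytoplasmic protein induced by hypoxia and by differentiation, and lies on chromosome 15 at 69027315 to 69068190 (minus strand, MGP_C57BL6NJ_G0022315). Its level was 643, 653 and 578 CPM in Pdk4fl/fl, the highest of the 10 genes per kilobase in that genotype, and 17.1, 35.5 and 33.5 CPM in Pdk4SMKO. Pdk4SMKO replicate 1 was the lowest, and the highest Pdk4SMKO library was still 16.3-fold under the lowest Pdk4fl/fl library. The means were 624.9 ± 40.6 and 28.7 ± 10.1 CPM (SD, n = 3 each), a 21.8-fold lower level (log2 fold change -4.45, SE 0.26, adjusted p = 1.9e-07, 95% interval -5.03 to -3.86). It ranked 369th from the bottom of the 14085 genes by log2 fold change. Of the 2 genes annotated on the opposite strand within its bounds, *Gm17035* had 0 counts in all libraries and *Gm2895* had 0 to 17.

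*Ankrd37* encodes an ankyrin repeat protein, and lies on chromosome 8 at 46782297 to 46785262 (minus strand, MGP_C57BL6NJ_G0034077). It was counted 12, 4 and 3 times in Pdk4fl/fl and 36, 23 and 34 times in Pdk4SMKO, or 0.80, 0.22 and 0.23 against 1.58, 1.14 and 1.67 CPM. The genotypes did not overlap, and Pdk4fl/fl replicate 1 was the nearest library to the other genotype. The log2 fold change of 1.81 (SE 0.52, adjusted p = 0.0087, 95% interval 0.65 to 2.97) had the widest interval of the 10 genes. It ran from 1.48 to 2.68 when each library in turn was left out, with an adjusted p of at most 0.044. Its ends overlap *Ufsp2* by 57 bases and *Lrp2bp* by 565 bases on the opposite strand. Both had more unscaled counts in every Pdk4SMKO library than in any Pdk4fl/fl library. The TMM factors were higher in Pdk4SMKO, so more counts there need not mean a higher level. Scaled levels of these neighbours were not compared. *Ufsp2* had 454, 462 and 499 counts in Pdk4fl/fl and 660, 522 and 664 in Pdk4SMKO, far above those of *Ankrd37*. *Lrp2bp* had 1, 3 and 3 counts against 12, 12 and 22. With strand use not stated, the share of the *Ankrd37* counts that came from the shared bases was not tested.

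*Car9* encodes carbonic anhydrase 9, a cell surface enzyme that acidifies the medium and a classical marker of HIF-1 activity, and lies on chromosome 4 at 43186109 to 43196332 (plus strand, MGP_C57BL6NJ_G0028627). It was counted 30, 22 and 11 times in Pdk4fl/fl and 26, 29 and 28 times in Pdk4SMKO. The 3 Pdk4SMKO libraries fell inside the range of the Pdk4fl/fl libraries, at 1.14, 1.44 and 1.37 CPM between 0.832 and 2.00 CPM. The log2 fold change was -0.04 (SE 0.40, adjusted p = 0.94), and the 95% interval of -0.92 to 0.85 leaves room for changes just short of 2-fold in either direction, which were not detectable at this depth. An antisense gene, *Gm12454*, had 4 to 18 counts over part of the same locus. *Car12*, the other membrane-bound isoform among the listed targets, was at 1.64 ± 0.438 CPM in Pdk4fl/fl and 4.50 ± 1.59 CPM in Pdk4SMKO (log2 fold change 1.47, SE 0.35, adjusted p = 0.0031), named after its values were seen.

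Compared per kilobase of gene length, the order of the 10 transcripts changed between genotypes. In Pdk4fl/fl the mean levels were 94.8 CPM per kilobase for *Ndrg1*, 49.9 for *Arnt*, 48.3 for *Hif1a*, 12.4 for *Vhl* and 7.59 for *Egln1*, followed by *Egln3* at 1.45. The remaining 4, *Epas1*, *Car9*, *Adm* and *Ankrd37*, lay between 0.296 and 0.788. *Arnt* and *Hif1a* overlapped between libraries, as did each neighbouring pair of the lowest 4. In Pdk4SMKO the mean levels were 123 for *Hif1a*, 26.4 for *Egln3*, 25.2 for *Egln1*, 13.2 for *Adm*, 10.5 for *Vhl*, 8.68 for *Arnt* and 4.35 for *Ndrg1*, followed by *Epas1* at 3.01, *Ankrd37* at 1.04 and *Car9* at 0.573. *Egln3* and *Egln1* overlapped there, as did *Ndrg1* and *Epas1*, and all other neighbours were separate, *Adm* and *Vhl* narrowly, at 11.03 and 10.99 in their nearest libraries. *Ndrg1* went from rank 1 to rank 7, and *Adm* from rank 9 to rank 4.

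The spread inside Pdk4SMKO followed 1 library. Replicate 1 was the lowest of the 3 for 8 of the 10 genes, those other than *Ankrd37* and *Adm*, whichever way the gene differed between genotypes. The same library had the highest summed level of 8 mesothelial marker genes, at 1325 CPM against 723 and 829 in the others, and of 8 macrophage marker genes, at 87.2 CPM against 35.1 and 30.6. Its smooth muscle marker sum was also the highest, at 954 CPM against 842 and 723. So was its endothelial marker sum, at 5.66 CPM against 2.84 and 4.02. The library had the lowest summed level of 8 fibroblast marker genes, at 1321 CPM against 2778 and 2564. The part of these markers in the spread was not tested. Without that library the log2 fold changes were 1.53 for *Hif1a*, 2.18 for *Epas1*, -2.46 for *Arnt*, 4.31 for *Egln3* and -4.17 for *Ndrg1*, and the 8 genes past the threshold kept their calls.

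The cell type markers set limits on what a level per culture means. Of the smooth muscle list, 4 of 8 genes were higher and 3 lower, a share of 87.5% past the threshold against 59.3% of all genes tested. *Acta2*, smooth muscle actin, was at 233 ± 40.8 CPM in Pdk4fl/fl and 701 ± 74.5 CPM in Pdk4SMKO (SD, n = 3 each; log2 fold change 1.59, SE 0.16, adjusted p = 6.6e-06). *Tagln*, transgelin, had the highest mean level of that list per kilobase in Pdk4fl/fl, and was at 253 ± 38.6 CPM there and 52.7 ± 29.7 CPM in Pdk4SMKO (log2 fold change -2.26, SE 0.32, adjusted p = 9.7e-05). *Cnn1*, calponin, was also lower (-1.50, SE 0.48, adjusted p = 0.015). By RT-qPCR and Western blot the study reported *Acta2*, *Cnn1* and *Tagln* (as SM22α) as higher in Ang II-treated Pdk4SMKO MASMCs. For *Cnn1* and *Tagln* the counts went in the opposite direction. What separates these results was not tested. *Myh11*, the smooth muscle myosin that defines the lineage, had 8 to 10 counts in each Pdk4fl/fl library and 44 to 62 in each Pdk4SMKO library, so the defining marker of the labelled cell type was at very low counts in all 6.

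Markers of other cell types also differed between the genotypes, with 59.3% of all genes tested past the threshold as the background. A marker that passed the filter on low counts through 1 genotype alone could hardly have been called the other way. In Pdk4SMKO these included all 6 higher macrophage markers and the tested mesothelial markers other than *Msln* and *Krt19*. In Pdk4fl/fl they included *Erg*. Of the mesothelial list, 7 of 7 tested were higher in Pdk4SMKO, with sums of 74.2 to 99.99 CPM in Pdk4fl/fl and 723 to 1325 CPM in Pdk4SMKO, led by *Msln* at 410 ± 174 CPM in Pdk4SMKO and *Krt19* at 79.2 ± 14.3 CPM in Pdk4fl/fl. Of the macrophage list, 6 of 7 tested were higher and 1, *Cd68*, was lower (log2 fold change -2.85, SE 0.34, adjusted p = 2.5e-05). In every Pdk4fl/fl library 0 counts were listed for *C1qa*, *C1qb*, *Adgre1* and *Tyrobp*, and the macrophage sums were 21.4 to 38.1 CPM in Pdk4fl/fl, mostly *Cd68*, and 30.6 to 87.2 CPM in Pdk4SMKO, mostly *Lyz2*. Of the fibroblast list, 4 of 8 were higher and 1 lower, a share of 62.5% near that background, with sums of 144 to 177 CPM in Pdk4fl/fl, led by *Dcn*, and 1321 to 2778 CPM in Pdk4SMKO, led by *Col14a1*. Of the endothelial list, 3 of 8 could be tested and all 3 were lower, with sums of 17.4 to 26.3 CPM in Pdk4fl/fl and 2.84 to 5.66 CPM in Pdk4SMKO, mostly *Kdr* in both. *Cldn5* had 0 counts in all libraries, and *Cdh5* and *Emcn* had 0 or 1. *Erg* had 48, 47 and 44 counts in Pdk4fl/fl and 1, 0 and 0 in Pdk4SMKO, and *Pecam1* had 25, 17 and 8 against 1, 0 and 6. The part of these marker differences in the levels of the 10 genes was not tested, and in bulk libraries fewer cells of a type and less RNA per cell cannot be told apart.

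Of 14 other HIF subunits and regulators tested, 3 were higher and 2 were lower, a share of 35.7% past the threshold against 59.3% of all genes tested, with a median log2 fold change of 0.18. *Cul2* and *Rbx1*, which encode the scaffold and the RING subunit of the ligase that carries the von Hippel-Lindau protein, were higher: *Cul2* was at 17.7 ± 2.82 CPM in Pdk4fl/fl and 45.0 ± 3.31 CPM in Pdk4SMKO (log2 fold change 1.35, SE 0.15, adjusted p = 1.8e-05), and *Rbx1* at 27.3 ± 6.87 and 89.5 ± 9.51 CPM (1.72, SE 0.18, adjusted p = 1.0e-05). The elongins *Elob* and *Eloc* of the same ligase had log2 fold changes of -0.23 (adjusted p = 0.34) and 0.19 (adjusted p = 0.43), and the sign of *Elob* turned with library size alone. *Os9*, whose product was described as binding both HIF-1 alpha and its hydroxylases, was higher (means of 112 and 259 CPM, log2 fold change 1.21, SE 0.14, adjusted p = 1.7e-05).

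The chaperones that stabilize the alpha subunits independently of oxygen were the 2 lower genes of that list. *Hsp90aa1* was found only through the description of a row without a gene name. Whether the 1036 exon bases of that row cover the whole gene was not tested. The row was counted 33172, 43039 and 32462 times in Pdk4fl/fl and 4418, 3605 and 4024 times in Pdk4SMKO (log2 fold change -3.62, SE 0.13, adjusted p = 1.5e-08). *Hsp90ab1* was at a mean of 11347 ± 584 CPM in Pdk4fl/fl and 2141 ± 77.8 CPM in Pdk4SMKO (log2 fold change -2.41, SE 0.13, adjusted p = 1.3e-07). The ubiquitin ligase gene *Siah2*, whose product degrades prolyl hydroxylases, had a log2 fold change of -0.65 (SE 0.20, adjusted p = 0.012), under 2-fold. The coactivator genes *Crebbp* and *Ep300* and the inhibitor *Cited2* did not pass, at -0.36, 0.25 and 0.29, and the sign of *Crebbp* turned with library size alone. *Hif3a*, the third alpha subunit, had 0 counts in every Pdk4fl/fl library and 10, 5 and 12 counts in the Pdk4SMKO libraries. Its counts were too few for the fit, and against a floor of 3 counts in each Pdk4fl/fl library its level was at least 2.16-fold higher in Pdk4SMKO.

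**Figure D4:**
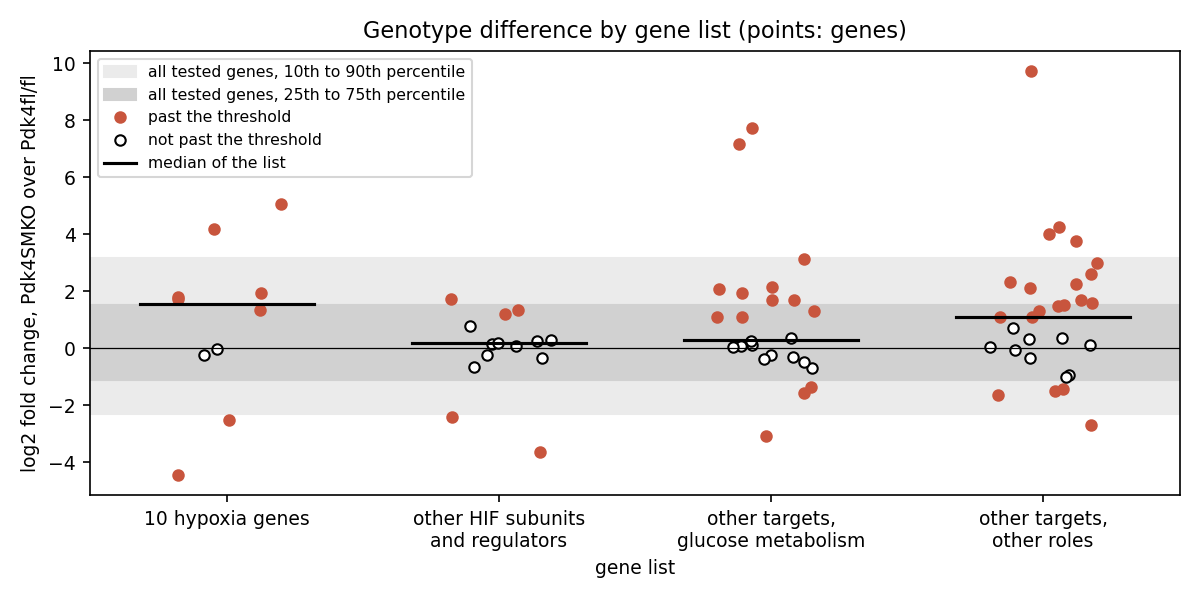
Log2 fold change of every tested gene in 4 lists, Pdk4SMKO over Pdk4fl/fl, with filled points past the threshold, open points not past it and a line at the list's median, over bands that hold the 10th to 90th and the 25th to 75th percentile of all genes tested. The list medians were 1.54 for the 10 genes, 0.18 for the other subunits and regulators, 0.31 for the targets of glucose metabolism and 1.11 for the targets with other roles.

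Of the 24 other HIF targets in glucose metabolism, 11 were higher and 3 lower, and the median log2 fold change was 0.31. The 45.8% higher compare with 32.8% of all genes tested, and the 12.5% lower with 26.5%, while the 58.3% past the threshold in either direction were near the background of 59.3%. With library size alone, 11 were higher and 1 lower, and the 45.8% higher were then close to the 43.9% of all genes. With at least 10 counts required in every library, 8 were higher and 3 lower. The list was chosen with earlier results of these data known, so these shares are descriptive only. *Slc16a3*, which encodes the lactate exporter MCT4, was counted 2, 4 and 2 times in Pdk4fl/fl and 1098, 737 and 598 times in Pdk4SMKO, a ratio of 223 (95% counting interval 113 to 518). *Aldoc*, the brain-type aldolase, was counted 0, 2 and 2 times against 178, 328 and 329 times, a ratio of 153 (59.6 to 564). *Pdk1*, another inhibitor kinase of pyruvate dehydrogenase and a classical HIF target, rose from 7.54 ± 1.56 to 65.9 ± 15.8 CPM (log2 fold change 3.13, SE 0.23, adjusted p = 7.5e-07). By Western blot the study found no compensatory rise of PDK1 protein in Pdk4SMKO MASMCs, with vehicle or with Ang II. What separates that protein result from these mRNA counts was not tested. *Eno2*, neuronal enolase, was lower, at 313 ± 11.1 CPM in Pdk4fl/fl and 37.1 ± 3.02 CPM in Pdk4SMKO (log2 fold change -3.08, SE 0.12), as was pyruvate kinase *Pkm*, at 4141 ± 177 and 1401 ± 156 CPM (-1.56, SE 0.14). The widely used markers *Slc2a1*, the glucose transporter GLUT1, and *Pgk1*, phosphoglycerate kinase, did not pass, at 0.35 (SE 0.17, adjusted p = 0.090) and 0.27 (SE 0.11, adjusted p = 0.051). The study reported both mRNAs as lower in Ang II-treated Pdk4SMKO MASMCs by RT-qPCR.

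Of 29 tested HIF targets with other roles, 16 were higher and 4 lower, and the median log2 fold change was 1.11. The 55.2% higher compare with 32.8% of all genes tested, and the 13.8% lower with 26.5%. With library size alone, 17 were higher and 2 lower, or 58.6% higher against 43.9% of all genes. With at least 10 counts required in every library, 13 were higher and 4 lower. This list too was chosen with earlier results known, so its shares are descriptive only. *Stc2*, stanniocalcin 2, was counted 2, 0 and 0 times in Pdk4fl/fl and 921, 811 and 940 times in Pdk4SMKO, a ratio of 981 (95% counting interval 271 to 8101). *Lox*, lysyl oxidase, which crosslinks collagen and elastin, rose from 207 ± 10.8 to 3327 ± 501 CPM (log2 fold change 4.01, SE 0.16, adjusted p = 2.2e-08). *Cdkn1a*, the cell cycle inhibitor p21, rose from 30.5 ± 10.4 to 246 ± 44.5 CPM (3.01, SE 0.26). The nuclear receptor gene *Rora* fell from 175 ± 15.1 to 27.1 ± 2.49 CPM (-2.69, SE 0.13), the mitophagy receptor gene *Bnip3l* from 370 ± 41.6 to 120 ± 14.7 CPM (-1.63, SE 0.14) and the cytokine gene *Mif* from 501 ± 137 to 176 ± 6.86 CPM (-1.50, SE 0.18). Neither *Vegfa*, the angiogenic growth factor, nor *Bnip3*, a paralogue of *Bnip3l*, passed the threshold. *Vegfa* was at 161 ± 18.9 and 164 ± 19.4 CPM (log2 fold change 0.03, SE 0.13, adjusted p = 0.85), with a sign that turned under RLE scaling, and *Bnip3* was at 25.6 ± 7.22 and 28.0 ± 10.7 CPM (0.13, SE 0.29, adjusted p = 0.70).

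The receptor for adrenomedullin is the calcitonin receptor-like receptor (*Calcrl*) joined to 1 of 3 accessory proteins, of which RAMP2 and RAMP3 give adrenomedullin receptors and RAMP1 gives a receptor for calcitonin gene-related peptide. *Calcrl* was counted 7, 2 and 2 times in Pdk4fl/fl and 61, 13 and 26 times in Pdk4SMKO, higher with a log2 fold change of 2.66 (SE 0.70, adjusted p = 0.0052), and Pdk4SMKO replicate 1 held the highest count. *Ramp1* was counted 12, 20 and 21 times against 239, 388 and 398 times (log2 fold change 3.83, SE 0.34, adjusted p = 2.9e-06). The 2 accessory proteins of the adrenomedullin receptors were lower. *Ramp2* was counted 20, 27 and 21 times in Pdk4fl/fl and 7, 0 and 8 times in Pdk4SMKO (-2.60, SE 0.64, adjusted p = 0.0038). *Ramp3* was counted 21, 39 and 29 times against 0, 3 and 3 times, 20.2-fold lower by counts (95% counting interval 8.93 to 56.5). In Pdk4SMKO *Adm* and *Calcrl* were higher, and *Ramp2* and *Ramp3*, at most 39 counts in any library, were lower. A relation between these levels was not tested.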

How the data were processed

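RNA from 6 Ang II-treated MASMC cultures (3 Pdk4fl/fl, 3 Pdk4SMKO) was sequenced by the authors, who deposited whole-number counts of reads per gene without normalization. The labels name the SMARTER kit, the study's methods another one, and the submitters' processing notes the build GRCm39, while the identifiers are those of the C57BL/6NJ strain annotation, so coordinates of genes are printed as the table gives them. Aligner, counting program and use of strand are not given in the sources used here.

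Groups follow the labelled genotype. The tools were edgeR 4.0.16 in R 4.3.3 (filterByExpr, TMM, quasi-likelihood test on genotype) and Benjamini-Hochberg adjustment over 14085 genes, with DESeq2 1.42.0 as an alternative. The threshold was a fold of at least 2 together with an adjusted p under 0.05. SE is the log2 fold change divided by the square root of F. Ratios within a library used counts per kilobase of the gene length in the table with 0.5 added. Counting intervals are exact conditional 95% intervals and, like the floor of 3 counts (0.132 to 0.227 CPM), cover counting error only. The fit was tested on simulated data.

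The 10 genes and all lists were chosen with earlier results of these data known. Named genes were the 10, *Pdk4*, any regulator or adrenomedullin receptor gene, *Slc2a1*, *Pgk1*, *Pdk1*, *Vegfa* and *Bnip3*, and of each other target list the 3 lowest and 3 highest by log2 fold change past the threshold with at least 10 CPM in the higher genotype and no overlap. Marker genes named were the most abundant of a list in a genotype and those at 0, and *Cnn1*, *Myh11*, *Car12*, *Cdh5*, *Emcn*, *Erg*, *Pecam1*, *Xist* and the genes overlapping the 10 were added after their values were seen. *Siah1a* was not matched to a row, and *Selenbp1* had 0 counts. *Pgk1*, *Vegfa*, *Hsp90aa1*, *Lyz2*, *Gapdh*, *Pgam1*, *Eno1* and *Selenbp1* were matched by the row description, and *Elob*, *Eloc* and *Ero1a* by an older symbol. The rows of *Hsp90aa1*, *Lyz2*, *Pgam1* and *Selenbp1* carry identifiers of unnamed new entries. Whether they cover the whole gene was not tested.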

Additional observations from a re-analysis of the deposited data

How the results depend on the processing

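Of 247 values recomputed under alternatives, 239 were scored as the same and 8 reversed, all for *Vhl* or *Car9*, neither of which passed the threshold. A fold change had to keep its direction and side of the threshold, and a count to stay within 1.5 times. A ratio difference had to move by less than the larger SD of a genotype. Part of the 239 could not change. The adjusted p alone and the unadjusted p with the fold reuse the main fit, so genes past the threshold stayed past it. Gene length cancels in a difference of log2 ratios. *Vhl* had a log2 fold change of 0.36 with library size alone. *Car9* had 0.17 with upper-quartile factors, 0.56 with library size alone, 0.012 with no filter, 0.059 with a minimum of 10 counts in every library, and 0.34 without Pdk4fl/fl replicate 1 and 0.07 without Pdk4SMKO replicate 1, in a range of -0.29 to 0.34 when each library in turn was left out. The cause was not tested. The minimum of 10 counts gave no value for *Ankrd37* or *Adm* and left 6 of the 10 genes past the threshold. DESeq2 called 8 of the 10 genes and 9434 genes in all. The labels give both genotypes the replicate numbers 1 to 3 without saying what a number stands for, so the numbers were not taken as pairs. Same-numbered libraries deviated together with correlations of 0.0396, 0.0604 and 0.176, and differently numbered libraries with -0.131 to 0.0533. With a replicate block 8281 genes were past the threshold, the 10 genes kept their calls and *Car9* had a log2 fold change of 0.018. The alternatives of the *Hif1a* to *Arnt* ratio were chosen after seeing the data. Depth limits most *Car9* and *Ankrd37*, which had at most 36 counts in any library, and *Adm* in Pdk4fl/fl, with at most 14.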
